A study of Mus musculus with 20 samples.

Results

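NICD-ER cells are E2-10HA cells, a mouse hybridoma line that the labels call mature T cells, carrying an integrated retroviral plasmid (pMIGRI) for a Flag-tagged Notch intracellular domain (NICD) fused to the estrogen receptor (ER), with GFP behind an IRES. The 4 samples described here, of 20 in the series, are 2 NICD-ER samples given ethanol and 2 given 4-hydroxytamoxifen (4-OHT), each for 24 h, and were chosen by their titles. Ethanol and 4-OHT cells share the fusion, the plasmid and the selection by sorting, and all were grown in medium with 2% serum. The other samples are 6 CRISPR controls with an empty vector, 6 with guides against the H2A.Z genes, and 2 each of BioNICD wild type and BioNICD DEP, which carry a biotin ligase with a biotin-tagged NICD or its DEP form and received no treatment. No sample analysed here received 4-OHT without NICD-ER, so the action of 4-OHT on the fusion and any other action of 4-OHT in these cells cannot be told apart. The labels name 1 line and give no origin for its replicates, so the p-values rest on a spread among libraries that could be technical. The titles decided all groups: for 4 of the 6 CRISPR controls the description names a BioNICD construct instead, and for 2 of the 6 samples with H2A.Z guides it names the empty vector. These samples enter the CRISPR control levels and the model of all 20 samples, not the main test.

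Notch is a cell surface receptor whose intracellular domain is cut free when a neighbouring cell presents a ligand. NICD then enters the nucleus, binds the DNA-binding protein RBPJ together with Mastermind proteins, and activates target genes such as Hes1, Hey1, Dtx1, Nrarp and, in T cells, Il2ra. A fusion to the ER is held outside the nucleus until a ligand such as 4-OHT is added. In developing T cells Notch drives lineage choice, growth and survival, and in mature T cells it bears on cytokine production.

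Total counts were 28866834 and 30823198 with ethanol and 33580638 and 39319068 with 4-OHT. Levels are given as CPM, library-scaled counts with TMM factors, and fold changes as fitted log2 values for 4-OHT minus ethanol. "Rose" and "fell" are used for genes with a Benjamini-Hochberg adjusted p under 0.05 in edgeR's quasi-likelihood test over 12499 genes. Ethanol replicate 1 stood apart from the other 3 samples in Lars2, a gene whose count can hold ribosomal RNA reads, at 90.6 CPM against 2178 to 2933 CPM. Over the series its low level was not unusual: Lars2 lay at 57.7 to 169 CPM in the BioNICD samples and at 117 to 9438 CPM in the CRISPR controls. The mean chi-square per gene between replicates was 5.17 for ethanol and 3.68 for 4-OHT with Lars2 and the ribosomal precursor Rn45s left out, above the 1 that sampling noise gives. Each library was counted as a sample, but this excess does not tell separate cultures from separate preparations of 1 culture.

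Counts over the genes of the fusion were well above those of cells without it, and were slightly lower with 4-OHT, by a difference whose call depended on the processing. Notch1 stood at 100 and 96.0 CPM with ethanol and at 93.5 and 89.2 CPM with 4-OHT (log2 fold change -0.09, SE 0.0409, adjusted p = 0.0807), while the 6 CRISPR controls lay between 0.915 and 2.75 CPM. Esr1, the estrogen receptor gene, stood at 22.2 and 21.3 CPM with ethanol and at 20.7 and 16.7 CPM with 4-OHT (-0.22, adjusted p = 0.0640), against 0 to 0.0689 CPM in the CRISPR controls. Notch1 was called lower with upper quartile scaling (adjusted p = 0.0223), with a replicate block (0.0261) and without ethanol replicate 2 (0.0452). Esr1 was called lower with upper quartile scaling (adjusted p = 0.0352), with no filter on low counts (0.0437), with a replicate block (0.0232) and without 4-OHT replicate 1 (-0.38, 0.00666). Reads of the fusion and of the cells' own genes are counted over the same exons and cannot be told apart. Notch1 was lower here than in BioNICD cells, which held 281 ± 11.2 CPM in the wild type and 645 ± 23.6 CPM in the DEP form (SD, n = 2 each).

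With 4-OHT, 4521 genes changed (36.2% of the genes tested), of which 2376 rose and 2145 fell (19.0% and 17.2% of the genes tested). Counts of gene lists below are to be read against these shares, and several lists lay near them. Most of these changes were small: the median log2 fold change was 0.27 among the genes that rose and -0.28 among those that fell. Large changes went mainly upwards. At least 2-fold changes were called for 332 rises (2.66% of genes tested) and 107 falls (0.856%), and at least 4-fold changes for 144 and 7. At least 8-fold rises numbered 74, and the largest called falls stayed below 8-fold. Of the 314 genes below 0.1 CPM with ethanol, 60 rose at least 2-fold, but genes that low entered the test only through a group where they were higher. Among the 2354 genes between 100 and 1000 CPM with ethanol, 22 rose and 6 fell at least 2-fold, and of the 53 genes above 1000 CPM none changed by 2-fold, while 7 rose and 32 fell. In a model of all 20 samples the biological coefficient of variation was 11.2% in place of 3.58%. There 578 of the 11988 genes tested rose and 302 fell. At least 2-fold changes were called there for 254 rises and 45 falls. Counts of gene lists in that model are to be read against these totals, not against 19.0% and 17.2%.

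**Figure D1:**
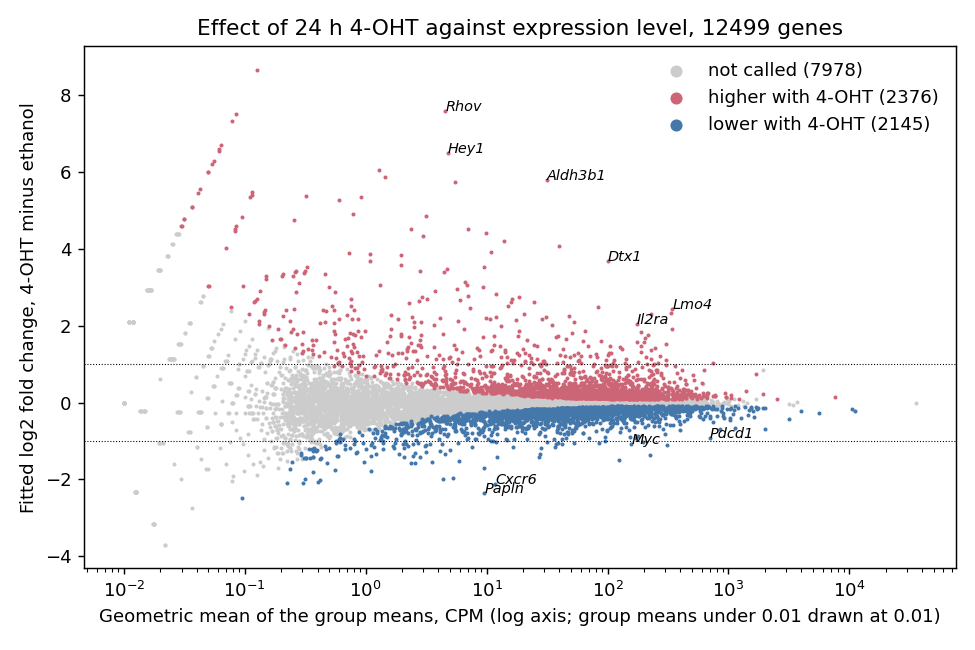
Fitted log2 fold change (4-OHT minus ethanol) against the geometric mean of the 2 group means in CPM (log axis) for the 12499 genes tested. Each point is a gene, coloured by its call, and dotted lines mark 2-fold. The points above the upper line (332 called) outnumber those below the lower line (107 called), and Rhov, Hey1 and Aldh3b1 stand highest among the 10 genes labelled in the plot.

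Of 21 Notch targets listed, 14 were tested, and 9 rose and 3 fell (median log2 fold change 0.91, against -0.00 over all genes tested). The list was drawn up with earlier results of these data known, so its counts are a description. Hey1 (mm9 chromosome 3, 8663359 to 8667038), a transcriptional repressor, stood at 0.387 and 0.618 CPM with ethanol and at 42.4 and 47.7 CPM with 4-OHT (6.48, SE 0.129, adjusted p = 2.75e-21). Nrarp, a small protein that dampens Notch signalling, stood at 0.0967 and 0.0926 CPM and rose to 3.31 and 4.23 CPM (5.27, SE 0.350, adjusted p = 3.83e-11). Both genes were close to silent without 4-OHT and their groups lay far apart.

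Dtx1 (chromosome 5, 121130273 to 121161678), which encodes an E3 ubiquitin ligase of the pathway, was already present with ethanol at 29.2 and 27.2 CPM and rose to 360 and 361 CPM (3.68, SE 0.0452, adjusted p = 3.80e-25). Il2ra (chromosome 2, 11564419 to 11614821), the alpha chain of the interleukin-2 receptor, stood at 87.9 and 83.7 CPM and rose to 358 and 351 CPM (2.05, SE 0.0377, adjusted p = 6.17e-22). For these targets the replicates differed by a few percent and the treatment by several-fold. The pseudokinase gene Trib2 rose from 7.16 and 7.20 to 48.1 and 46.9 CPM (2.73), and the repressor gene Hes1 from 24.4 and 27.2 to 79.9 and 82.0 CPM (1.66). Per kilobase of exon, the 4-OHT levels ran from 1.46 RPKM for Nrarp over 20.4 for Hey1, 55.8 for Hes1 and 80.0 for Il2ra to 97.0 RPKM for Dtx1, so the gene with the largest fold was not the most abundant.

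The remaining targets changed less or in the other direction. Ccnd3, which encodes cyclin D3, rose from 200 and 187 to 339 and 331 CPM (0.80) and Tcf7, a T cell transcription factor gene, from 404 and 394 to 651 and 647 CPM (0.71). Cdkn1a, a cell cycle inhibitor gene, rose by a log2 fold change of 0.22. Myc, the growth factor-responsive transcription factor that Notch activates in T cell leukaemia, fell from 230 and 227 to 108 and 108 CPM (-1.08, SE 0.0382, adjusted p = 1.26e-16), and the survival gene Bcl2 fell from 152 and 166 to 113 and 113 CPM (-0.48). Gata3 gave -0.11, a call lost without ethanol replicate 1 (adjusted p = 0.241) and without either 4-OHT replicate (adjusted p = 0.0807 and 0.201). Ccnd1 (-0.48, adjusted p = 0.0838) and Hes7 (1.02, adjusted p = 0.303) missed the threshold, and Hes5, Hey2, Heyl, Ptcra, Notch3, Igf1r and Il7r had too few counts to be tested. In the model of all 20 samples 6 targets rose and 1, Myc, fell. The rises of Hes1 (adjusted p = 0.111) and Tcf7 (0.140) were among the calls lost there.

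**Figure D2:**
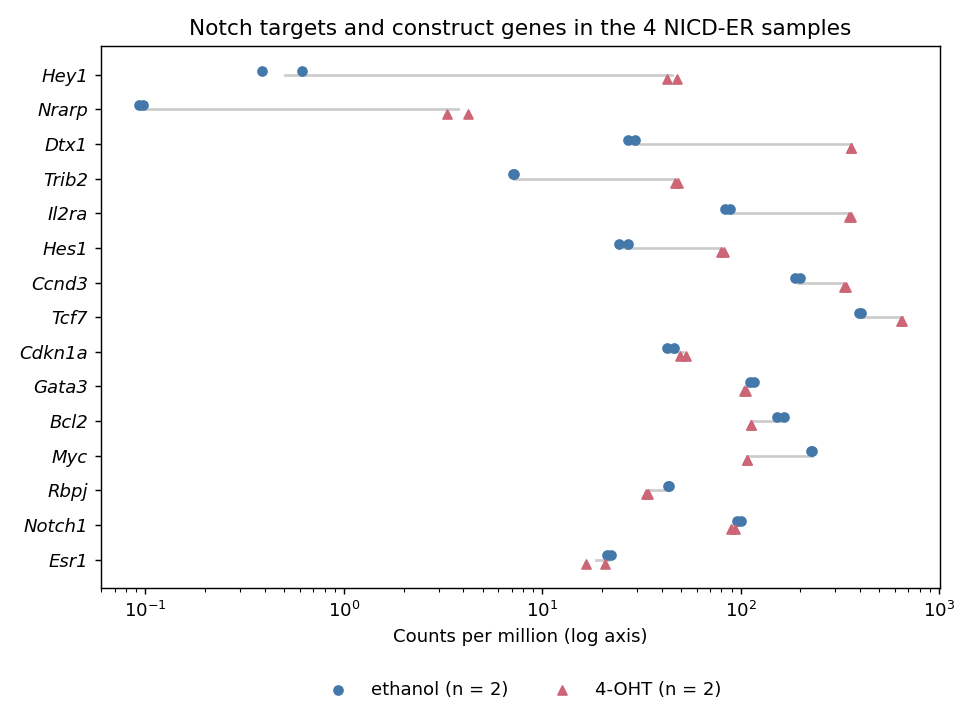
CPM (log axis) of the called Notch targets and of Rbpj, Notch1 and Esr1 in each of the 4 samples, ethanol as circles and 4-OHT as triangles, with a grey line between the 2 group means. Hey1, Nrarp and Dtx1 are separated by more than 10-fold, whereas the groups of Notch1 and Esr1 lie side by side.

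Components of the pathway moved in both directions, mostly by less than 2-fold. Of 8 receptors, ligands and Fringe enzymes tested, 1 rose and 4 fell. The ligand gene Jag1 rose from 3.45 and 3.74 to 7.25 and 7.59 CPM (1.05, adjusted p = 6.11e-07). Notch2 fell from 294 and 288 to 242 and 244 CPM (-0.25), and the Fringe genes Lfng (-0.34), Mfng (-0.31) and Rfng (-0.29), whose products add sugars to Notch receptors, gave lower values too. The Rfng call was lost without either ethanol replicate (adjusted p = 0.0509 and 0.0940) and without 4-OHT replicate 2 (0.114). Of 22 genes for Notch cleavage and turnover, 8 rose (36.4%) and 3 fell (13.6%). Furin, which encodes the protease that cuts the Notch precursor, rose from 116 and 117 to 348 and 342 CPM (1.57, SE 0.0386, adjusted p = 1.40e-19). Psen2, a gamma-secretase gene, fell from 12.8 and 13.3 to 9.22 and 9.78 CPM (-0.45), and Neurl3 from 4.19 and 4.01 to 1.40 and 1.33 CPM (-1.58). Of 22 genes for RBPJ and its cofactors 3 rose (13.6%) and 6 fell (27.3%), all by less than 2-fold. The shares over all genes tested were 19.0% and 17.2%. Rbpj fell from 43.7 and 42.9 to 33.2 and 34.2 CPM (-0.35, SE 0.0529, adjusted p = 1.15e-05), and the corepressor genes Tle3 and Tle4 gave 0.32 and -0.30. Over these lists the model of all 20 samples kept Jag1, Furin and Dtx3l as rises and Mfng and Neurl3 as falls, and lost every call for RBPJ and its cofactors.

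The core of the RBPJ binding site, TGGGAA, was searched on both strands (TTCCCA on the other) in RefSeq promoter windows of build GRCm38.p6, each with 250 bases before and 50 after a gene's start, with no other motif searched. Of the 144 genes that rose at least 4-fold, 115 had a window, and 35 of their 150 windows held the core (23.3%). The share was 23.1% of 11965 windows of all genes tested and 25.6% of all 32851 windows, so the shares lay close together. The 250 bases before the start are shown for 4 genes that rose at least 4-fold, 2 pathway genes with no match and 2 surface receptor genes with a match in capitals. Dtx1 (chr5:120711670-120711919, minus strand) and Nrarp (chr2:25180508-25180757, plus strand) hold no match. Cd22 (chr7:30879029-30879278, minus strand) holds 1 match on the gene's strand that begins 145 bases before the start, and Gpr183 (chr14:121965194-121965443, minus strand) holds 1 on the opposite strand, 64 bases before it. A match is only these letters and no evidence of binding.
Dtx1: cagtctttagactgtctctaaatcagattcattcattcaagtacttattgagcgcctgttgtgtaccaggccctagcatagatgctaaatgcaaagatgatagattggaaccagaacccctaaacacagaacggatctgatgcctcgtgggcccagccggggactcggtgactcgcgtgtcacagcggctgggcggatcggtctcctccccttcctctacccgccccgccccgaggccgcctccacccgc
Nrarp: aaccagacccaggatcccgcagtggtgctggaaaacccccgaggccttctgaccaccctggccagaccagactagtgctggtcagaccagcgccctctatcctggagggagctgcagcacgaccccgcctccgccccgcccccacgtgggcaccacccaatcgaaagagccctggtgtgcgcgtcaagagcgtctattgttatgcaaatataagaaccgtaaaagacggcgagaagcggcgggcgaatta
Cd22: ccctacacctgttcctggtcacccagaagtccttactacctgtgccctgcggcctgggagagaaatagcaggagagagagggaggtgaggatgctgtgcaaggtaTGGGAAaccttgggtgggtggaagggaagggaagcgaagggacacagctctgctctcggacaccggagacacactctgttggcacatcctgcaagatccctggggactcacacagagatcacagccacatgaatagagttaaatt
Gpr183: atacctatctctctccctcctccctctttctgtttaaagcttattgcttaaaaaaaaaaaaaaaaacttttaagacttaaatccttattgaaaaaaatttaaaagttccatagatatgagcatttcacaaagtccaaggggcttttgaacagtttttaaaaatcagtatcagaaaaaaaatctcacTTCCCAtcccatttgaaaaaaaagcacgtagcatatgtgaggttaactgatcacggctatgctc

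Beyond the pathway, the largest rises were in genes of varied function. Rhov, a small GTPase gene, went from 0.290 and 0.371 to 62.2 and 64.3 CPM (7.57, SE 0.110, adjusted p = 1.05e-23). Tgm2, a transglutaminase gene, went from 0.806 and 0.710 to 41.3 and 39.0 CPM (5.73), and Aldh3b1, an aldehyde dehydrogenase gene, from 4.32 and 4.23 to 233 and 233 CPM (5.77). Gcnt2, which builds branched sugar chains, rose from 0.161 and 0.216 to 11.9 and 10.4 CPM (5.86). In each of these genes the ethanol samples lay far below the 4-OHT samples and the replicates lay close together. Ret, a receptor tyrosine kinase gene, had 3 counts with ethanol and 164 with 4-OHT, a pooled ratio of 45.0 (exact 95% counting interval 15.1 to 220, counting error only). The largest falls were smaller. Papln, an extracellular matrix gene, fell from 23.3 and 20.3 to 4.29 and 4.16 CPM (-2.36, SE 0.0970, adjusted p = 2.13e-15), and Zdhhc23, a palmitoyltransferase gene, from 7.86 and 9.48 to 2.02 and 2.34 CPM (-1.98). The other genes with the largest rises outside the lists were Slc45a4 (6.04), Iltifb (4.89) and Clip4 (4.84), and those with the largest falls Epb4.1l1 (-1.78), Pipox (-1.57), Agpat9 (-1.55), Wnt10a (-1.55) and Slc15a1 (-1.51).

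Genes with the largest rises often lay beside each other. Of the 144 genes that rose at least 4-fold, 34 (23.6%) had another within 100 kb in mm9, whereas 425 (3.40%) of all 12494 genes tested with 1 position had such a gene within 100 kb. These pairs were chosen after their values were seen, and several are members of gene families. Some of the 34, such as Ffar1 and Cdsn with 0 counts in both ethanol samples, were near the floor without 4-OHT. Such genes entered the test only through a group where they were higher, and the share of 3.40% is not matched for this. The chromosome 7 cluster of Ifitm genes, which encode antiviral membrane proteins, held Ifitm1 (3.38), Ifitm2 (2.32), Ifitm3 (2.20), Ifitm5 (2.68) and the nearby Nlrp6 (3.34). By RPKM with 4-OHT, Ifitm2 (1182) stood above Ifitm3 (32.4), Ifitm1 (17.2) and Ifitm5 (11.4). Ifitm2 stood at 148 and 151 CPM with ethanol and 741 and 742 CPM with 4-OHT. On chromosome 13 the protease inhibitor genes Serpinb6b, Serpinb9 and Serpinb9b stood next to each other, with 4.41, 2.61 and 2.09 on the log2 scale. Serpinb6b rose from 2.39 and 1.95 to 43.7 and 47.6 CPM and Serpinb9 from 9.86 and 10.2 to 61.7 and 60.6 CPM.

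Other pairs joined unrelated or distantly related genes. Dtx1 and Rasal1, a gene for a Ras GTPase-activating protein, end 654 bp apart on opposite strands of chromosome 5, and Rasal1 rose from 37.0 and 33.5 to 198 and 193 CPM (2.48). Aldh3b1 and Unc93b1, which encodes a chaperone of nucleic acid-sensing receptors, are 5.47 kb apart on chromosome 19, and Unc93b1 rose from 1.51 and 1.42 to 32.3 and 34.9 CPM (4.52). The receptor genes Gpr18 (3.42) and Gpr183 (3.84) are 36.6 kb apart on chromosome 14. Il22 and Iltifb are 79.6 kb apart on chromosome 10 and nearly identical, so reads may be divided between them. Counting used no strand option, and the share of reads that run from one gene of a close pair into the other was not tested.

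Cytokine genes were mostly low. Of 22 tested, 7 rose (31.8%) and 5 fell (22.7%), against 19.0% and 17.2% of all genes tested. In the model of all 20 samples 4 rose and 1 fell. Il10, an inhibitory cytokine gene, had 0 counts in both ethanol samples and stood at 1.60 and 1.57 CPM with 4-OHT, at least 33.4-fold higher against a floor of 3 counts over the ethanol group. The chemokine gene Ccl1 also had 0 counts with ethanol and stood at 0.644 and 0.604 CPM with 4-OHT, at least 13.2-fold higher. Il22 rose from 0.290 and 0.710 to 11.8 and 11.1 CPM (4.50, SE 0.180, adjusted p = 1.35e-15). Osm, the oncostatin M gene, rose from 19.6 and 19.4 to 31.5 and 30.1 CPM (0.67).

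Of the 5 cytokine genes that fell, 4 encode members of the tumour necrosis factor family, and the fifth was Tgfb1 (-0.20). Tnfsf11, the RANK ligand gene, fell from 5.83 and 6.98 to 2.75 and 2.54 CPM (-1.27), Lta, the lymphotoxin alpha gene, from 10.9 and 9.11 to 6.05 and 5.39 CPM (-0.80), and Ltb from 11.8 and 11.4 to 6.58 and 7.15 CPM (-0.75). Tnf fell from 40.8 and 39.8 to 34.8 and 32.5 CPM (-0.25). The cytokine gene Ifng missed the threshold, at 0.258 and 0.371 against 0.476 and 0.652 CPM (adjusted p = 0.115), as did Il4 and Il6, at 4 counts each with 4-OHT (adjusted p = 0.114 and 0.397).

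Cytokine receptors split, with 8 of 28 rising (28.6%) and 7 falling (25.0%), against 19.0% and 17.2% of all genes tested. In the model of all 20 samples 6 rose and 2 fell. The 3 chains of the interleukin-2 receptor all rose. Beside Il2ra, the beta chain gene Il2rb rose from 6.61 and 6.79 to 26.4 and 26.2 CPM (1.98, SE 0.0725, adjusted p = 2.33e-16), and Il2rg, the chain shared with other receptors, from 204 and 179 to 280 and 267 CPM (0.52, adjusted p = 9.07e-09). Il4ra rose from 3.13 and 3.21 to 6.02 and 6.21 CPM (0.96), Il17ra from 176 and 173 to 304 and 303 CPM (0.81), and Tgfbr3 from 0.483 and 0.525 to 1.96 and 1.33 CPM (1.69). Both chains of the interferon gamma receptor fell. Ifngr1 fell from 241 and 236 to 124 and 128 CPM (-0.92, SE 0.0352, adjusted p = 5.62e-16) and Ifngr2 from 65.7 and 58.8 to 36.0 and 34.1 CPM (-0.82). Tgfbr2, a receptor for TGF-beta, fell from 373 and 367 to 231 and 222 CPM (-0.70) and Csf2rb from 4.45 and 4.23 to 2.35 and 2.61 CPM (-0.79).

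Receptors that guide migration moved in both directions. Of 17 chemokine and egress receptor genes tested, 3 rose (17.6%) and 8 fell (47.1%), against 19.0% and 17.2% of all genes tested. All 3 rises and 5 of the falls were at least 2-fold (3 rises and 2 falls in the model of all 20 samples). Ccr7, the receptor for homing to lymph nodes, rose from 3.26 and 3.27 to 62.8 and 58.1 CPM (4.21, SE 0.0898, adjusted p = 8.55e-21). Gpr183, a receptor for oxysterols, rose from 0.677 and 0.371 to 7.23 and 7.68 CPM (3.84), and Ccr4 from 63.0 and 45.6 to 131 and 116 CPM (1.19). Cxcr6 fell from 25.1 and 24.3 to 5.77 and 5.56 CPM (-2.12, SE 0.0973, adjusted p = 1.87e-14), Ccr6 from 10.1 and 10.6 to 2.91 and 2.37 CPM (-1.97), and Ccr2 from 42.2 and 47.3 to 17.1 and 17.7 CPM (-1.35). Ccr9 and Ccr8 fell by 1.10 and 0.66, and Cxcr3 gave -1.76 at levels near 1 CPM, a call lost without 4-OHT replicate 2 (adjusted p = 0.0565).

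**Figure D3:**
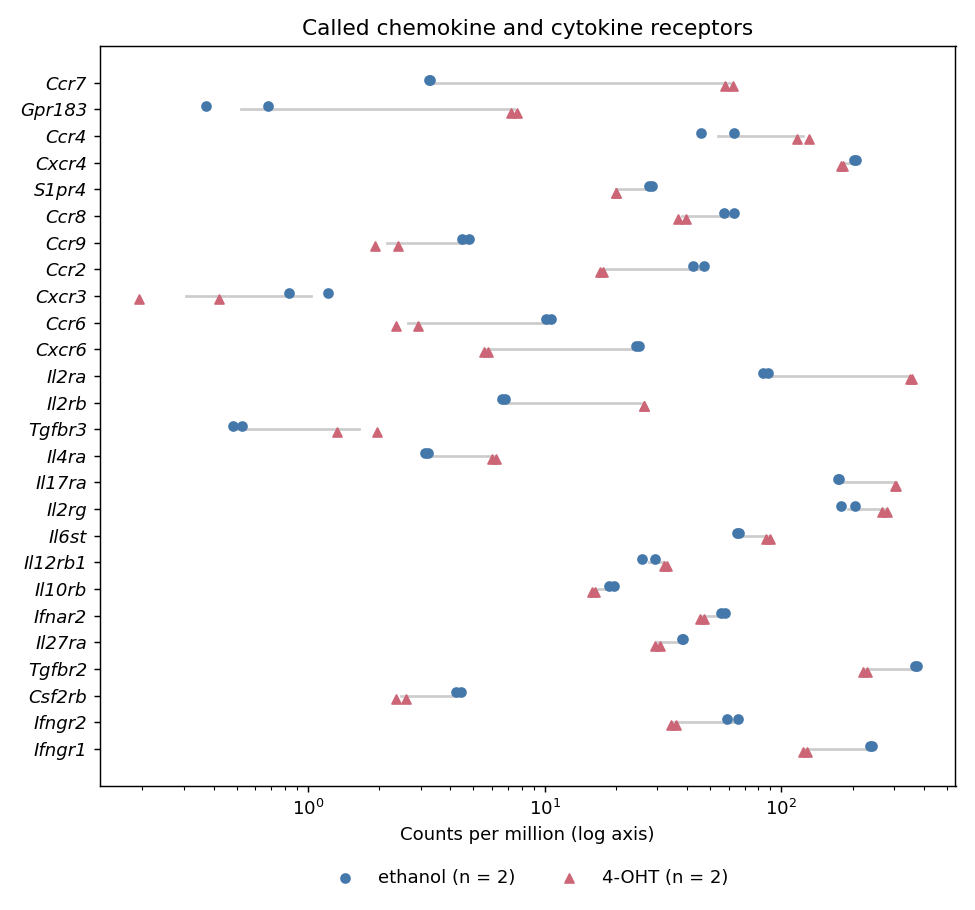
CPM (log axis) of the called chemokine, egress and cytokine receptor genes in each of the 4 samples, ethanol as circles and 4-OHT as triangles, with a grey line between the 2 group means. Ccr7 and Gpr183 move furthest to the right with 4-OHT and Cxcr6 and Ccr6 furthest to the left.

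Among integrins and adhesion genes 4 of 16 rose (25.0%) and 3 fell (18.8%), near the 19.0% and 17.2% of all genes tested. In the model of all 20 samples 1 rose and 1 fell. Itgal, the alpha chain of the leukocyte integrin LFA-1, rose from 263 and 258 to 502 and 501 CPM (0.95, SE 0.0339, adjusted p = 1.34e-16), while its partner Itgb2 stood at 362 and 360 CPM with ethanol and at 362 and 364 CPM with 4-OHT (0.02, adjusted p = 0.782). Itgb3 fell from 68.4 and 67.6 to 40.1 and 40.8 CPM (-0.74) and Cd44 from 225 and 220 to 163 and 158 CPM (-0.46).

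Of 22 JAK, STAT and SOCS genes, which relay and limit cytokine signals, 10 rose (45.5%) and 3 fell (13.6%). The shares over all genes tested were 19.0% and 17.2%. In the model of all 20 samples 3 rose. The feedback inhibitor gene Socs1 rose from 16.5 and 16.0 to 33.7 and 33.2 CPM (1.05, SE 0.0639, adjusted p = 3.88e-12). Stat3 rose from 225 and 221 to 280 and 284 CPM (0.35), and Stat4 fell from 187 and 186 to 136 and 140 CPM (-0.42). Of 40 interferon-stimulated genes 22 rose and 2 fell, with a median of 0.33 (7 rose in the model of all 20 samples). Isg15, a ubiquitin-like protein gene, rose from 5.74 and 5.31 to 25.0 and 26.1 CPM (2.22), and Rtp4 (1.81) and Oas2 (1.58) rose from levels below 0.5 CPM. Usp18, the protease gene that removes ISG15 and damps interferon receptors, fell from 60.2 and 62.4 to 27.9 and 29.8 CPM (-1.08, SE 0.0578, adjusted p = 3.56e-13). Type I interferon receptor chains did not rise: Ifnar2 fell by 0.29 and Ifnar1 gave -0.02 (adjusted p = 0.729).

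T cell receptor signalling genes split into 8 that rose (28.6%) and 10 that fell (35.7%) of 28, against 19.0% and 17.2% of all genes tested. In the model of all 20 samples 3 rose and 5 fell. Lck, the kinase that starts the signal, rose from 153 and 153 to 401 and 407 CPM (1.41, SE 0.0340, adjusted p = 1.07e-19). The related kinase gene Fyn rose from 118 and 115 to 174 and 175 CPM (0.59), the phosphatase gene Ptpn22 from 172 and 168 to 333 and 328 CPM (0.97), and the adaptor gene Pag1 from 116 and 114 to 192 and 187 CPM (0.72). Several other components were lower. Rasgrp1, a Ras activator gene, fell from 436 and 424 to 285 and 282 CPM (-0.59, SE 0.0361, adjusted p = 3.75e-12), and the adaptor genes Lat (-0.49) and Grap2 (-0.42) fell as well. Trat1, an adaptor that binds the receptor complex, fell from 17.6 and 16.6 to 5.27 and 5.15 CPM (-1.71). Cd3d (-0.01, adjusted p = 0.933) and Cd3e (0.07, adjusted p = 0.273), which encode the receptor's signalling chains, missed the threshold, but without ethanol replicate 1 Cd3e gave 0.18 and was called higher (adjusted p = 0.00328).

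Of 22 costimulatory and inhibitory receptors 6 rose and 6 fell (27.3% each, against 19.0% and 17.2% of all genes tested). In the model of all 20 samples 4 rose and 2 fell. Entpd1, the ectoenzyme CD39, rose from 3.09 and 3.58 to 27.4 and 25.7 CPM (2.99, SE 0.0919, adjusted p = 9.05e-18), and Nt5e, the ectoenzyme CD73 that acts after it, from 27.2 and 26.3 to 54.9 and 53.6 CPM (1.03). Havcr2, the inhibitory receptor TIM-3, rose from 1.19 and 1.54 to 10.4 and 9.86 CPM (2.89). Pdcd1, the inhibitory receptor PD-1, fell from 955 and 978 to 511 and 509 CPM (-0.91, SE 0.0369, adjusted p = 1.59e-15), and Cd96 fell from 67.5 and 68.5 to 44.3 and 43.9 CPM (-0.62). Tnfrsf25 (2.35) was called from under 0.4 CPM and lost its call without ethanol replicate 1 (adjusted p = 0.0904).

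Transcription factors of T cells moved both ways, 11 rising (39.3%) and 10 falling (35.7%) of 28, against 19.0% and 17.2% of all genes tested. In the model of all 20 samples 5 rose and 4 fell. Tbx21, which specifies type 1 helper cells, rose from 7.48 and 6.67 to 13.1 and 14.3 CPM (0.96), Runx3 from 78.9 and 67.9 to 118 and 113 CPM (0.67), and Batf from 38.0 and 36.1 to 51.1 and 56.3 CPM (0.55). Lef1 fell from 45.4 and 44.3 to 16.8 and 16.5 CPM (-1.42, SE 0.0647, adjusted p = 1.66e-14), opposite in direction to its relative Tcf7, and Maf fell from 48.0 and 52.6 to 26.5 and 25.5 CPM (-0.95). Bcl11b, a T cell identity factor, fell from 274 and 274 to 198 and 192 CPM (-0.48), and Prdm1 from 32.7 and 30.1 to 22.3 and 21.1 CPM (-0.53). Of 9 Id, E and ZEB factors 4 rose and 5 missed the threshold, and Id2 alone was called in the model of all 20 samples. Id2, an inhibitor of E proteins, rose from 150 and 149 to 293 and 300 CPM (0.99, SE 0.0363, adjusted p = 2.22e-16).

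Of 15 cytotoxic genes 5 rose, also in the model of all 20 samples, and 1 fell. The granzyme gene Gzmb rose from 124 and 122 to 247 and 262 CPM (1.06, SE 0.0371, adjusted p = 1.01e-16), Cst7, a cystatin gene, from 116 and 118 to 386 and 404 CPM (1.76), and Srgn, the granule proteoglycan gene, from 115 and 124 to 205 and 218 CPM (0.83). Prf1, the perforin gene, had 0 counts with ethanol and stood at 0.812 and 0.628 CPM with 4-OHT, at least 15.1-fold higher. Gzma was the gene called lower (-0.36), a call lost without ethanol replicate 1 (adjusted p = 0.670) and without either 4-OHT replicate (0.0774 and 0.120). Gzmd, Gzme and Gzmg had 0 counts in the 4 samples.

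Cell cycle genes changed by small amounts, mostly upwards. Of 28 G1/S genes 23 rose and 1 fell (median 0.20), and of 28 G2/M genes 24 rose and 4 missed the threshold (median 0.22). In the model of all 20 samples every G1/S call was lost and 7 G2/M genes rose. Tyms, which encodes thymidylate synthase, stood at 43.2 and 45.0 CPM with ethanol and at 58.8 and 61.4 CPM with 4-OHT (0.46, SE 0.0555, adjusted p = 5.86e-07), and Ccne2, a cyclin E gene, at 24.9 and 25.8 against 33.8 and 34.4 CPM (0.44). The spindle gene Prc1 stood at 272 and 281 against 351 and 364 CPM (0.38, SE 0.0349, adjusted p = 6.21e-09), and Top2a, a topoisomerase gene, at 1247 and 1277 against 1541 and 1579 CPM (0.31). Mki67 rose from 1726 and 1827 to 2034 and 2093 CPM (0.22). In each of these genes the 2 groups did not overlap, as in 66.4% of all genes tested. With upper quartile scaling, which shifts the median of all genes by -0.03, 20 G1/S and 23 G2/M genes rose.

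Cyclins, CDKs and their inhibitors moved in both directions, 7 rising (33.3%) and 6 falling (28.6%) of 21. The shares over all genes tested were 19.0% and 17.2%. In the model of all 20 samples 2 rose and 1 fell. E2f2 rose from 62.2 and 61.9 to 85.6 and 84.2 CPM (0.46). Cdk6 fell from 139 and 133 to 106 and 97.4 CPM (-0.41), Ccnd2, a relative of Ccnd3, from 284 and 270 to 229 and 223 CPM (-0.28), and Rbl2, which represses cell cycle genes, from 208 and 214 to 143 and 152 CPM (-0.51). The inhibitor gene Cdkn1b fell from 122 and 136 to 107 and 108 CPM (-0.26).

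Genes of the Myc network and of biosynthesis were mostly lower. In the Myc network 2 of 10 rose and 6 fell, and Myc and Mxi1 fell in the model of all 20 samples. Beside Myc the falls included Mxd4, which encodes an antagonist of Myc and fell from 57.0 and 55.3 to 26.8 and 26.8 CPM (-1.06), and Mxi1 (-0.55) and Mnt (-0.40), whose products also oppose Myc. Of 30 ribosome biogenesis genes 23 fell and 7 missed the threshold (median -0.22, 2 falling in the model of all 20 samples). Ppan fell from 106 and 103 to 71.3 and 74.2 CPM (-0.52, SE 0.0427, adjusted p = 8.92e-10) and Polr1a, the largest subunit of RNA polymerase I, from 142 and 138 to 99.5 and 105 CPM (-0.45). Ncl, the nucleolin gene, fell from 968 and 934 to 802 and 810 CPM (-0.23).

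Of 23 glycolysis genes 17 fell and 2 rose (median -0.31, 6 and 2 in the model of all 20 samples). Aldoa, an aldolase gene, fell from 3699 and 3648 to 2662 and 2743 CPM (-0.44), the lactate transporter gene Slc16a3 from 78.3 and 83.8 to 55.6 and 50.3 CPM (-0.61), and the glucose transporter genes Slc2a1 and Slc2a3 by 0.43 and 0.40. Hk1 went the other way, from 292 and 286 to 483 and 494 CPM (0.76, SE 0.0345, adjusted p = 1.41e-14), while the related hexokinase gene Hk2 fell from 243 and 249 to 193 and 197 CPM (-0.33). Pfkfb4 was the other rise (0.76). Of 22 cholesterol synthesis genes 10 fell and 12 missed the threshold (2 fell in the model of all 20 samples). Insig1, which restrains the pathway's activators, fell from 485 and 481 to 322 and 324 CPM (-0.57).

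Of 15 amino acid transporter genes 7 fell and 2 rose (3 and 1 in the model of all 20 samples), with Slc43a2 rising from 188 and 180 to 376 and 373 CPM (1.03) and Slc7a11 from 18.3 and 18.6 to 26.0 and 28.0 CPM (0.56). Slc7a5, a main importer of leucine, gave -0.02 (adjusted p = 0.797). Of 21 ATF4 and unfolded protein response genes 12 fell and 4 rose (median -0.13), and every call was lost in the model of all 20 samples. Hsp90b1, an endoplasmic reticulum chaperone gene, fell from 1858 and 1888 to 1405 and 1468 CPM (-0.38), and Hspa5 from 1709 and 1749 to 1457 and 1513 CPM (-0.21).

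**Figure D4:**
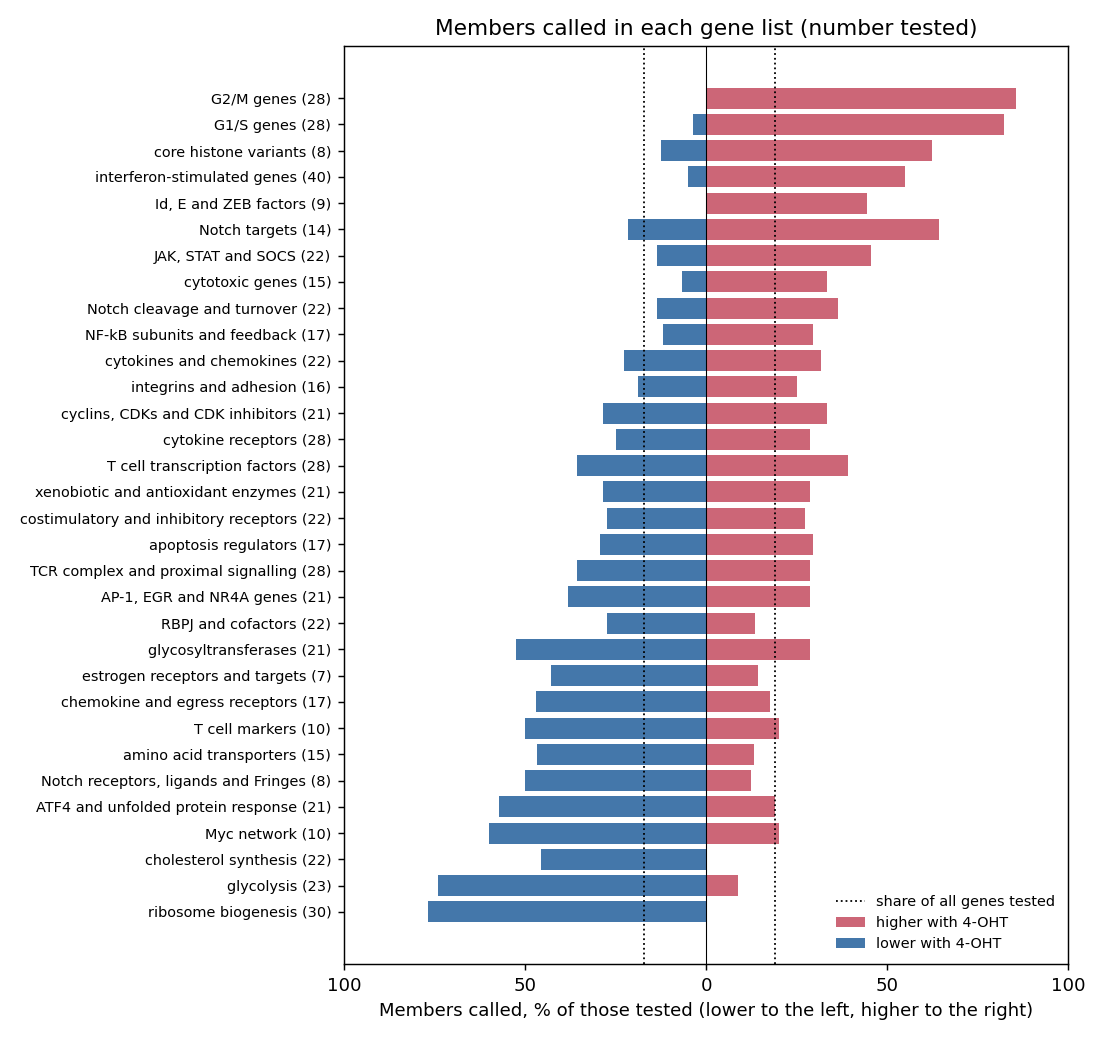
Share of the tested members of each gene list that were called higher (red, to the right) or lower (blue, to the left), for lists with at least 7 members tested (number in parentheses). Dotted lines mark the shares over all genes tested, 19.0% higher and 17.2% lower, and the G2/M, G1/S and ribosome biogenesis lists stand furthest from them.

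Immediate early genes were divided, 6 rising (28.6%) and 8 falling (38.1%) of 21, against 19.0% and 17.2% of all genes tested. In the model of all 20 samples 2 rose and 4 fell. Dusp1, a phosphatase gene, rose from 26.6 and 27.4 to 97.1 and 91.5 CPM (1.81, SE 0.0522, adjusted p = 3.10e-18), whereas Dusp6, a phosphatase gene of the ERK pathway, fell from 400 and 399 to 223 and 223 CPM (-0.83). Nr4a1, a nuclear receptor gene induced by T cell receptor signals, fell from 42.5 and 40.3 to 23.7 and 21.2 CPM (-0.87), and its relatives Nr4a2 (-1.34) and Nr4a3 (-0.60) fell too. Fos (0.01, adjusted p = 0.920) and Jun (-0.05, adjusted p = 0.711) missed the threshold. Of 17 NF-kB genes 5 rose (29.4%) and 2 fell (11.8%), against the same 19.0% and 17.2%. In the model of all 20 samples 3 rose and 1 fell. Bcl3 rose from 9.61 and 9.94 to 35.9 and 35.1 CPM (1.87, SE 0.0831, adjusted p = 1.02e-14) and Nfkb1, the gene of the p50 subunit that BCL3 binds, from 480 and 456 to 831 and 839 CPM (0.84). Tnfaip3, a feedback inhibitor gene, fell from 67.9 and 61.2 to 46.8 and 42.1 CPM (-0.53), and Rela and Relb missed the threshold (adjusted p = 0.176 and 0.902).

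Among 17 apoptosis regulators 5 rose and 5 fell (29.4% each, against 19.0% and 17.2% of all genes tested), and 1 rose in the model of all 20 samples. Bbc3, the PUMA gene, fell by 0.66 on the log2 scale. Among 21 xenobiotic and antioxidant enzymes 6 rose and 6 fell (28.6% each), and 3 and 2 in the model of all 20 samples. The members that rose most, beside Aldh3b1, were Mgst1, a microsomal glutathione transferase gene, from 0.0967 and 0.185 to 5.69 and 6.02 CPM (5.34), and Srxn1, from 15.8 and 15.9 to 45.6 and 41.9 CPM (1.47). Among 21 glycosyltransferases 11 fell and 6 rose (3 and 3 in the model of all 20 samples). Fut7, which makes selectin ligands, fell from 27.9 and 27.1 to 17.2 and 17.6 CPM (-0.66) and St8sia4 from 154 and 179 to 112 and 116 CPM (-0.54).

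Of 7 estrogen receptor genes and targets tested, 1 rose (14.3%) and 3 fell (42.9%), against 19.0% and 17.2% of all genes tested. These calls were all below 2-fold, and every call was lost in the model of all 20 samples. The list is short and mixes receptor genes with targets. Ctsd fell from 624 and 630 to 524 and 543 CPM (-0.23), and Esrra gave 0.16, a call lost with any 1 of the 4 samples left out (adjusted p from 0.0610 to 0.296). Greb1, Pgr, Tff1, Igfbp4 and Gper1, which include standard targets in breast cells, had too few counts to be tested. Of 8 core histone variant genes 5 rose and 1 fell, each by less than 2-fold and each lost in the model of all 20 samples, with H2afz at 20.3 and 25.6 against 28.8 and 30.6 CPM (0.38).

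In absolute terms the largest gains of CPM were in abundant genes. Ptbp3, an RNA-binding protein gene, gained 882 CPM on average, from 1285 and 1318 to 2211 and 2156 CPM (0.75, SE 0.0344, adjusted p = 1.66e-14). Lmo4, a LIM-domain transcriptional regulator gene, gained 645 CPM, from 149 and 148 to 796 and 792 CPM (2.43, SE 0.0376, adjusted p = 2.63e-23). The tetraspanin gene Cd82 rose from 178 and 172 to 660 and 661 CPM (1.92), and Actb from 7295 and 7279 to 8092 and 7994 CPM (0.15). The largest losses were in Eef2, a translation elongation factor gene, from 6228 and 6083 to 5130 and 5125 CPM (-0.26), in Aldoa, and in the galectin gene Lgals1, from 2537 and 2544 to 1563 and 1582 CPM (-0.68). Txnip, an inhibitor of glucose uptake, fell from 1446 and 1392 to 902 and 890 CPM (-0.66). In the model of all 20 samples the calls of Actb (adjusted p = 0.712), Eef2 (0.173), Aldoa (0.304) and Txnip (0.756) were lost.

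The line carried T cell markers throughout. Of 10 listed, 9 were at 1 CPM or more in all 4 samples, and their summed level was 1770 to 1803 CPM with ethanol and 1829 to 1863 CPM with 4-OHT. Within that sum 2 markers rose, Lck and Cd2, and 5 fell, Cd3g, Thy1, Lat, Cd5 and Trat1, of which Cd5 and Trat1 fell at least 2-fold. The Cd5 call was lost with any 1 of the 4 samples left out (adjusted p from 0.107 to 0.148), that of Cd3g without ethanol replicate 2 or 4-OHT replicate 1, and that of Cd2 without 4-OHT replicate 2. In the model of all 20 samples 1 marker rose and 2 fell. Of 8 B cell markers, 7 were below 1 CPM in all 4 samples and Cd79b was at 0. The exception was Cd22, an inhibitory lectin receptor known from B cells, which rose from 11.2 and 8.12 to 162 and 159 CPM (4.07, SE 0.0716, adjusted p = 2.65e-22). Of 11 NK and innate lymphoid markers, 8 were below 1 CPM in all 4 samples and Klrd1, Klrk1 and Eomes were at 0. The 3 that rose were Il2rb, Id2 and Nkg7 (0.548 and 0.494 to 1.74 and 2.01 CPM, 1.85). Myeloid markers summed to 15.5 to 18.8 CPM, nearly all of it Cd68, erythroid markers to 0.896 to 1.06 CPM and fibroblast markers to at most 3.29 CPM over the 4 samples. Of 3 fibroblast markers tested 1 rose and 1 fell: Acta2 fell from 3.13 and 2.78 to 1.62 and 1.76 CPM (-0.79, adjusted p = 0.00231; 0.281 in the model of all 20 samples). Pdgfrb rose, with 3 counts with ethanol and 105 with 4-OHT (ratio 28.8, exact 95% counting interval 9.58 to 142), while Col1a1 was at or below 0.0926 CPM and Dcn at 0. Within bulk samples, more RNA per cell and a larger share of cells with a gene on cannot be told apart.

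The NICD-ER effect was set against that of wild-type BioNICD over the DEP form, which shares no samples with it. These contrasts differ in construct, in duration and in control, and Notch1 counts were higher in the DEP control than in the BioNICD wild type. The BioNICD contrast called 65.6% of all genes tested. Of the 144 genes that rose at least 4-fold with 4-OHT, 131 (91.0%) were also higher in BioNICD wild type, where 32.0% of all genes tested were higher, and 2 were lower. Their median log2 fold change was 3.02 with 4-OHT and 5.44 between the BioNICD forms. The filter on low counts used all NICD groups together, so a gene could enter the test through its BioNICD wild-type level. Capn5, for example, had 10 and 14 counts with 4-OHT and a mean of 7.03 CPM in BioNICD wild type. The share of 91.0% is therefore a description. A test of the difference, which called 51.5% of all genes tested, called 80 of the 144, and for 69 of these the BioNICD effect was the larger in the same direction. For Dtx1 the effects were 3.68 and 9.86 (difference -6.18, adjusted p = 1.70e-23), for Il2ra 2.05 and 10.50, and for Gzmb 1.06 and 8.05. The starting levels differed as well. Dtx1 had a mean of 28.2 CPM with ethanol, against 1.72 CPM in the DEP form and 0.211 CPM in the CRISPR controls. It reached 360 CPM with 4-OHT and 1625 CPM in BioNICD wild type. How far the starting levels account for the smaller NICD-ER folds was not tested. For all 40 interferon-stimulated genes the NICD-ER effect was called below the BioNICD effect, with medians of 0.33 and 2.69, although 2 of them fell with 4-OHT and 1 was lower in BioNICD wild type.

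Some strong rises went against the BioNICD contrast. The 2 genes that rose at least 4-fold with 4-OHT and were lower in BioNICD wild type, named after their values were seen, were Izumo1r, the folate receptor 4 gene of T cells, and Plaur, the urokinase receptor gene. Izumo1r stood at 2.93 and 2.72 CPM with ethanol and 32.5 and 31.7 CPM with 4-OHT (3.51), against -1.80 between the BioNICD forms (adjusted p of the difference 1.95e-11), and Plaur at 17.8 and 16.6 against 70.4 and 68.0 CPM (2.02 and -0.80, 1.26e-13). Both were low in BioNICD cells. Izumo1r had means of 1.43 CPM in the DEP form and 0.452 CPM in the wild type, and Plaur 6.73 and 3.90 CPM. Aldh3b1 (5.77 and 3.98), Unc93b1 (4.52 and 2.23), Ccr7 (4.21 and 2.54) and Lmo4 (2.43 and 0.41) rose in both with the larger effect under 4-OHT (adjusted p of the difference 3.50e-10, 4.63e-07, 1.35e-05 and 1.19e-18).

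Genes that fell were divided between the directions. Of the 107 genes that fell at least 2-fold, 53 (49.5%) were lower in BioNICD wild type, where 33.6% of all genes tested were lower, and 26 (24.3%) were higher. Among the 26 were Cxcr6 (-2.12 and 0.51), Ccr9 (-1.10 and 1.55), and, named after their values were seen, the adhesion gene Pecam1 (-1.05 and 1.77) and the surface protein genes Ly6a (-1.03 and 0.89) and Ly6c1 (-1.32 and 4.97). The difference passed the test for each of these (adjusted p from 1.19e-18 to 6.14e-09). Papln (-2.36 and -2.58), Zdhhc23 (-1.98 and -1.97) and Maf (-0.95 and -0.94) fell in both, with adjusted p of the difference from 0.199 to 0.999, which does not show that the effects are equal.

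Cell cycle genes had opposite directions in these contrasts. Of 28 G1/S genes, 23 rose with 4-OHT and 3 were higher in BioNICD wild type, where 20 were lower, and the difference was called in the direction of a higher NICD-ER effect for 23. All 28 G2/M genes had a called difference in that direction, with medians of 0.22 and -0.43. Over all genes tested the difference was called towards a higher NICD-ER effect for 26.4% and towards a lower one for 25.1%. The model of all 20 samples called 2112 differences over all genes, in place of 6438. Ribosome biogenesis genes were lower in both contrasts, 23 of 30 with 4-OHT and 25 of 30 between the BioNICD forms (medians -0.22 and -0.35), with a called difference for 13 towards a higher and 3 towards a lower NICD-ER effect.

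**Figure D5:**
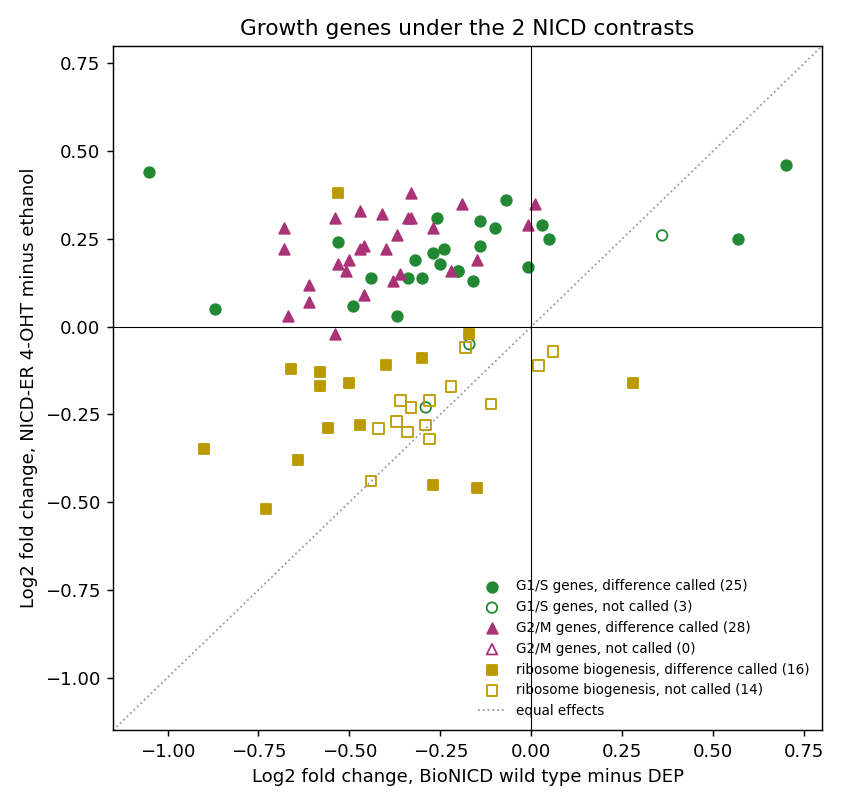
Log2 fold changes of G1/S, G2/M and ribosome biogenesis genes with 4-OHT in NICD-ER cells (vertical) and between BioNICD wild type and DEP (horizontal), 1 point a gene, filled where the difference of the effects was called and open where it was not. Most cell cycle genes lie above 0 on the vertical and below 0 on the horizontal axis, and most ribosome biogenesis genes lie below 0 on both.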

How the data were processed

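RNA was measured in all samples by sequencing of total RNA depleted of ribosomal RNA, with a stranded kit per the labels' protocols. Each deposited file holds raw counts of 24391 genes, which the authors made with featureCounts 1.5.0 over exons of a UCSC mm9 annotation with no strand option, per the file headers. The submitters' processing notes also name FastQC, Trimmomatic, STAR and DESeq2. Groups and replicate numbers came from the titles, although the descriptions of both second NICD-ER replicates say replicate 1. Counts of the 8 NICD samples were fitted with edgeR 4.0.16 in R 4.3.3 (TMM, filterByExpr, 1 coefficient per group, 4 residual degrees of freedom). The p-values of this main fit were adjusted over 12499 genes. Those of each alternative edgeR fit were adjusted over the genes it tested, from 11238 to 18349. The SE is the absolute log2 fold change divided by the square root of F. CPM used TMM factors over all 20 samples. The procedure was tested on simulated counts with the same dispersion for all genes and few genes changed, a simpler setting than these data. Intervals and floors of 3 counts cover counting error only.

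The members and all 38 gene lists were chosen with earlier results of these data known. Genes were named if they were pathway or construct genes, among the 12 largest called rises or falls with at least 1 CPM and no overlap, among the 6 largest CPM gains or losses, or among the 4 largest called rises or falls of a list, with other list members given to account for it. Alternatives covered scaling, filtering, the test (DESeq2 1.42.0), the samples fitted, a replicate block and each NICD-ER sample left out. Some items are not reported here.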

Additional observations from a re-analysis of the deposited data

Results flagged for a closer look

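For 3 of the genes with the largest falls, the effect had opposite signs in the NICD-ER and BioNICD contrasts and the difference of the effects passed the edgeR test. The difference in log2 fold change (NICD-ER minus BioNICD) was -2.63 for Cxcr6 (adjusted p = 9.42e-13), -2.49 for Neurl3 (adjusted p = 8.02e-06) and -3.32 for Pipox (adjusted p = 1.11e-10). Pipox, which encodes a peroxisomal oxidase, fell from 4.64 and 4.11 to 1.54 and 1.40 CPM with 4-OHT (-1.57) and was higher in BioNICD wild type (1.75). What differs between these contrasts besides the construct, such as duration and control, cannot be told apart.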

How the results depend on the processing

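With each NICD-ER sample left out in turn, the genes called ranged from 3107 to 4251 (higher 1627 to 2259, lower 1480 to 1992, at least 2-fold higher 308 to 321 and lower 76 to 102), and genes with a called difference from BioNICD from 5622 to 6258. In those fits the lone sample is assumed to vary like the other groups. The model of all 20 samples called 880 genes, 578 higher and 302 lower, with 45 at least 2-fold lower and 2112 with a called difference, and all 880 were among the 4521. The replicate block gave 4991, of which 4516 were among the 4521. The deviations of same-numbered samples correlated at 0.102 over all genes tested and at 0.281 over the 8446 genes with at least 10 CPM, and with only 2 pairs the numbers were not taken to pair samples. With upper quartile scaling 43.2% of calls were higher (1970 against 2586 lower), compared with 52.6%. No gene called in the main test and in any alternative changed sign. Of 265 named genes, 126 lost their call in at least 1 alternative, 124 of them in the model of all 20 samples. Counts below about 1 CPM limit precision: the median SE was 0.430 for genes from 0.1 to 1 CPM with ethanol and 0.0377 from 100 to 1000 CPM.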
